A study of Mus musculus with 10 samples.

Results

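*Hox* genes encode homeodomain transcription factors that are laid out in 4 clusters, and the order of the genes along a cluster follows the order of their expression along the head-to-tail axis. All genes of the table whose symbol is *Hoxa*, *Hoxb*, *Hoxc* or *Hoxd* followed by a number were taken, which gave 39 of the 55414 genes listed, with antisense and intergenic RNAs of the clusters left out. They comprise 11 *Hoxa* genes on chromosome 6, 10 *Hoxb* genes on chromosome 11, 9 *Hoxc* genes on chromosome 15 and 9 *Hoxd* genes on chromosome 2. Of the 39, 32 passed the filter of at least 10 counts in at least 5 libraries and were tested among 17490 genes, and 7 did not (*Hoxb1*, *Hoxc12*, *Hoxd12*, *Hoxa13*, *Hoxb13*, *Hoxc13* and *Hoxd13*).

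Genes that share a number across the clusters, the paralog groups, arose by duplication of an ancestral cluster. Groups with low numbers are expressed up to the hindbrain and neck, middle groups in the trunk, and groups with high numbers in the lumbar, sacral and tail region. Neural crest cells and the sensory neurons and glia they form keep much of the code of the level they come from, so a *Hox* profile of dorsal root ganglia (DRG) reads out which axial levels a sample holds, besides roles of single *Hox* genes in neuron subtypes.

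DRG of 5 control and 5 *WD1* cKO mouse embryos at embryonic stage E18.5 were measured by bulk RNA-sequencing, with 1 library each. In *WD1* cKO embryos (Wnt1Cre/+ with Dach1 flox/flox), Cre under *Wnt1* regulatory sequence recombines the floxed exon of *Dach1*, which encodes a transcriptional cofactor, in the neural crest. Controls were littermates that carry Dach1 flox/flox without Cre (Wnt1+/+), and the floxed line was of mixed C57Bl/6J and CD1 background. The libraries were grouped by their titles, since the labels' genotype field contradicts them by swapping both groups. The axial levels of the DRG collected for each library, and which embryos share a litter, were not given in the sources used here.

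*Dach1* (ENSMUSG00000055639), read first as a check of the titles, had 719, 872, 884, 1008 and 850 counts in control 1 to 5 and 454, 546, 589, 399 and 708 counts in *WD1* cKO 1 to 5. In CPM, the counts scaled to a common library size by the TMM method, every *WD1* cKO library lay below every control library, as the titles say. Reads on any exon are counted, also from transcripts that lack only the floxed exon 2. Its log2 fold change of -0.92 had a standard error of 0.050 and an adjusted p of 5.48e-06 (edgeR's quasi-likelihood test, Benjamini-Hochberg adjusted). Total counts were 20465132 to 27528784 for control and 19757596 to 34796562 for *WD1* cKO libraries. The 8 sensory neuron markers, *Avil* and *Prph* among them, summed to 4909 to 5242 CPM in control and 4865 to 5052 CPM in *WD1* cKO libraries, and the 6 glia and Schwann cell markers to 789.8 to 933.5 and 786.8 to 974.7 CPM, so the defining markers of the labelled tissue were present. Marker lists of other cell types set some libraries apart. They were control 3, with 17.1 CPM over 8 spinal cord markers (0.294 to 1.62 CPM in the others), and control 5, with 70.7 CPM over 5 sympathetic neuron markers (at most 10.99 CPM in the others). The 6 blood markers summed to 155 to 2471 CPM in control and 189.2 to 1137 CPM in *WD1* cKO libraries, and in both groups libraries 1 to 3 lay above libraries 4 and 5. The 6 skeletal muscle markers summed to 23.2 to 175.7 and 45.3 to 95.7 CPM. The 6 connective tissue markers summed to 4191 to 5835 CPM in control, highest in control 3, and 4635 to 5445 CPM in *WD1* cKO libraries. All 6 had a log2 fold change above 0 (median 0.095), 1 with an unadjusted p under 0.05 in the edgeR fit and 0 after adjustment. The part of blood, muscle and connective tissue RNA in the values of the *Hox* genes was not tested.

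Members on which the results below turn are shown by the homeobox, the segment that encodes the DNA-binding homeodomain. The capitals mark codons 48 to 53, which encode invariant residues of the helix that contacts DNA. The homeobox was found in all 39 genes in the transcripts of GENCODE M21 (GRCm38), and each one shown lies in exon 2 of the 2 exons of its transcript, on the plus strand. *Hoxb7* was the most abundant *Hox* gene, and *Hoxd10*, *Hoxc11* and *Hoxd11* the ones that varied most between libraries.
Hoxb7 (chr11:96289385-96289564): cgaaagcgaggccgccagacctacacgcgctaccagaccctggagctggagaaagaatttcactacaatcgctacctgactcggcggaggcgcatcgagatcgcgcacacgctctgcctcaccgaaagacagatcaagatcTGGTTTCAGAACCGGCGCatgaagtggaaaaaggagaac
Hoxd10 (chr2:74694141-74694320): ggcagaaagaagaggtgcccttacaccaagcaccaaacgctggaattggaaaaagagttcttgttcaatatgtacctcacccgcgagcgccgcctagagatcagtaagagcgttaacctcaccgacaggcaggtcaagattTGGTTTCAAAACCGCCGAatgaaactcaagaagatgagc
Hoxc11 (chr15:102956480-102956659): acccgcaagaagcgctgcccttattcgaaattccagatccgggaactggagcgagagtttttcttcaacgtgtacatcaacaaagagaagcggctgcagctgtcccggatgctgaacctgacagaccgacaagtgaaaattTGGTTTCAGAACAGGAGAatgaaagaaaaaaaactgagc
Hoxd11 (chr2:74683917-74684096): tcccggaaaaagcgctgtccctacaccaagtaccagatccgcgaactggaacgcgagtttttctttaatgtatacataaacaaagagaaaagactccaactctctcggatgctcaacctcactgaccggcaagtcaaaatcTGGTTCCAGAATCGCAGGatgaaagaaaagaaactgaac

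Homeoboxes of the same paralog group were identical at a median of 80.6% of their 180 bases (42 pairs, from 67.2% to 93.9%), and those of different groups at a median of 60.6% (699 pairs, from 46.1% to 88.9%). *Hoxc11* and *Hoxd11* shared 143 bases, and *Hoxd10* and *Hoxd11* 117. The longest run that 2 *Hox* transcripts shared outside annotated overlaps was 52 bases (*Hoxa6* and *Hoxb4*). Annotated exons overlap more widely. Of the exon bases of *Hoxd3*, 62.4% are also in exons of another gene on the same strand, and 52.3% of those of *Hoxd4*. The counts of these 2 genes are therefore uncertain. *Hoxd11* (10.8%) and *Hoxd10* (5.73%) both share exon bases with *Gm28309* on the same strand. Exons of antisense RNAs cover 52.9% of *Hoxb3*, 35.0% of *Hoxa11*, 27.3% of *Hoxb2* and 25.4% of *Hoxa3*, among others. Since the strand setting of the counting is not stated, reads of these RNAs cannot be told apart with certainty from those of the *Hox* genes they cover. *Hoxd1*, *Hoxb7*, *Hoxb8* and *Hoxc11* overlap no annotated exon of another gene.

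Trunk genes of groups 6 to 9 made up more than 50% of the *Hox* RNA in every library (from 54.0% to 63.5% per length), and genes of groups 12 and 13 were close to absent. To compare genes, CPM were divided by the length of each gene's merged exons in kilobases (RPKM, exon lengths from GENCODE M21). Summed over a paralog group and averaged over the 10 libraries, the level was 9.84 ± 1.74 RPKM (SD) in group 1, 1.48 ± 0.318 in group 2, 4.29 ± 0.361 in group 3, 9.94 ± 0.493 in group 4 and 8.95 ± 0.804 in group 5. It then rose to 15.2 ± 1.03 RPKM in group 6 and reached its highest value, 22.4 ± 1.47, in group 7. It stayed at 17.1 ± 2.78 RPKM in group 8, 19.6 ± 2.55 in group 9 and 13.5 ± 3.22 in group 10. Past group 10 it dropped to 1.71 ± 1.28 RPKM in group 11, 0.109 ± 0.252 in group 12 and 0.0331 ± 0.0550 in group 13. The ranges of groups 7 and 9 over the libraries overlapped, as did those of groups 4 and 5, and group 1 stood above groups 2 and 3 in each library through *Hoxd1*.

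**Figure D1:**
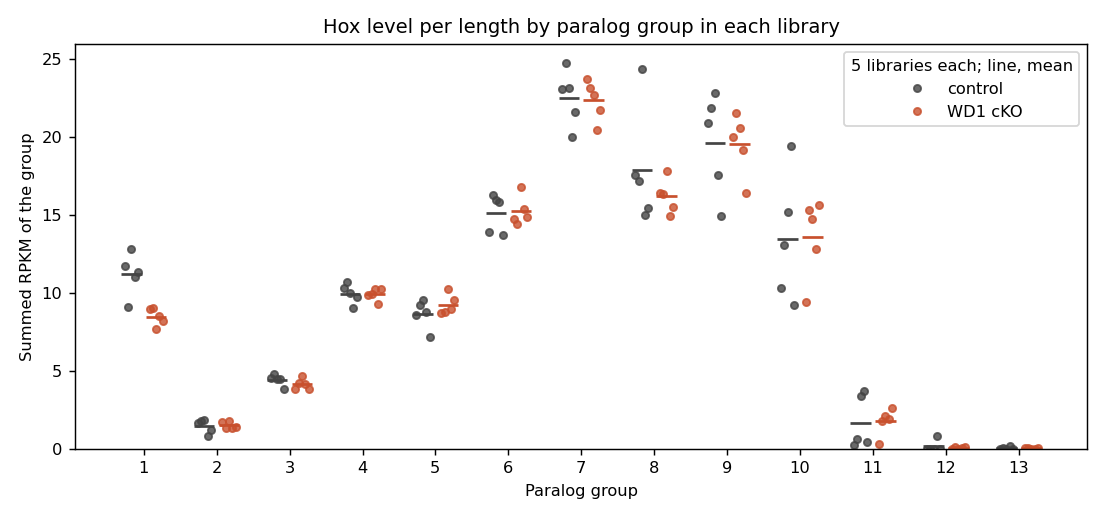
Summed level of each paralog group (x axis) in RPKM (y axis), with a point for each of 5 control (grey) and 5 WD1 cKO (orange) libraries and a line at the group mean. The level is highest in group 7, at a mean of 22.4 RPKM over the 10 libraries, and falls from 13.5 RPKM in group 10 to 1.71 in group 11.

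By region, the 12 genes of groups 6 to 9 held 59.8% ± 2.65 (SD, n = 10) of all *Hox* RPKM, the 8 genes of groups 1 to 3 held 12.6% ± 1.40, the 7 genes of groups 4 and 5 held 15.3% ± 0.868 and the 12 genes of groups 10 to 13 held 12.3% ± 3.37. The share of groups 1 to 3, which include *Hoxd1*, went from 10.91% in *WD1* cKO 3 to 15.1% in control 5, with means of 13.6% ± 1.22 (SD, n = 5) in control and 11.6% ± 0.574 in *WD1* cKO embryos, a difference that was not tested. The share of groups 4 and 5 went from 13.6% to 16.5%, and that of groups 10 to 13 from 8.33% in *WD1* cKO 1 to 19.0% in control 4. The clusters were unequal too. *Hoxb* genes summed to 41.5 ± 5.26 RPKM, *Hoxa* genes to 31.4 ± 2.58, *Hoxd* genes to 27.8 ± 3.71 and *Hoxc* genes to 23.5 ± 1.71 (SD, n = 10).

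**Figure D2:**
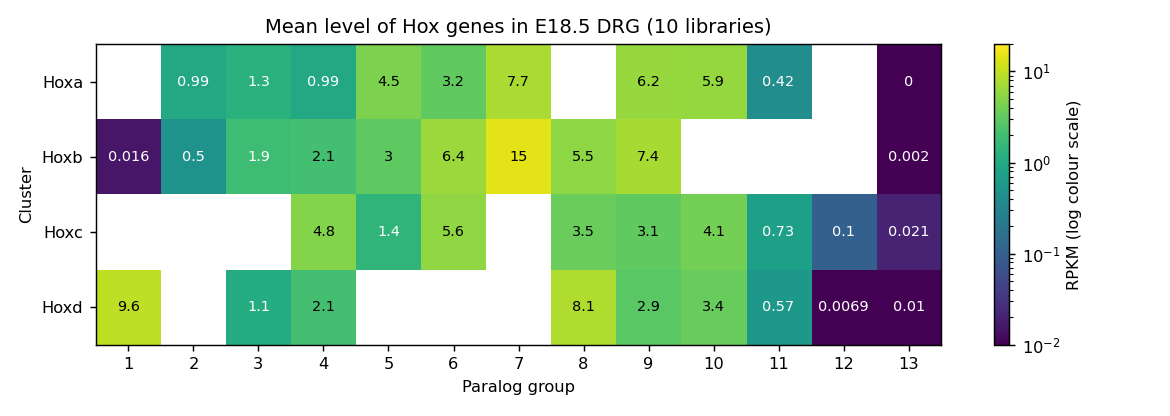
Mean RPKM over the 10 libraries for the Hox genes, by cluster (rows) and paralog group (columns). A white square holds no gene or a gene not shown. The colour scale is logarithmic and levels under 0.01 RPKM take its lowest colour. The highest levels are those of Hoxb7 (14.8 RPKM), Hoxd1 (9.61 RPKM) and Hoxd8 (8.06 RPKM), and every gene of groups 12 and 13 is near or at 0.

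*Hoxb7* (ENSMUSG00000038721), a trunk gene, had the highest level per length of all members. It had 486, 574, 485, 542 and 488 counts in control and 563, 638, 701, 419 and 778 counts in *WD1* cKO libraries, or 14.7 ± 1.33 RPKM (SD, n = 5) and 14.9 ± 0.746 RPKM. After it came *Hoxd1* with 9.61 ± 1.70 RPKM (SD, n = 10), *Hoxd8* with 8.06 ± 0.386, *Hoxa7* with 7.66 ± 0.574 and *Hoxb9* with 7.38 ± 1.41. *Hoxb7* lay clear of the others, and the means from *Hoxd8* down to *Hoxb9* lay within the spread of their neighbours in this order. The place of *Hoxd1* differed by group. In control it had 10.95 ± 1.29 RPKM (SD, n = 5) and lay above *Hoxd8* (8.05 ± 0.340) in every library, and in *WD1* cKO libraries, at 8.26 ± 0.534, it overlapped *Hoxd8* (8.08 ± 0.468). *Hoxc4* (ENSMUSG00000075394), a gene of the neck region, was the highest of groups 4 and 5. Its counts were 262, 296, 274, 290 and 274 in control and 293, 309, 395, 248 and 437 in *WD1* cKO libraries, and its level was among the steadiest, at 10.67 to 13.1 CPM in all 10.

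Among the genes of group 9, which mark the lower trunk, the level per length fell from *Hoxb9* through *Hoxa9* (6.22 ± 0.722 RPKM, SD, n = 10) and *Hoxc9* (3.09 ± 0.552) to *Hoxd9* (2.89 ± 0.559). *Hoxa9* had 729, 908, 698, 877 and 631 counts in control and 936, 959, 1148, 688 and 1037 in *WD1* cKO libraries. *Hoxb9* had 393, 469, 574, 421 and 336 counts in control and 451, 563, 572, 361 and 523 in *WD1* cKO libraries. Both genes were counted more than 300 times in every library, with ranges that overlap between the groups. *Hoxc9* had 202, 177, 152, 165 and 134 counts in control and 193, 219, 254, 154 and 192 in *WD1* cKO libraries. *Hoxd9* had 133, 167, 158, 188 and 86 counts in control and 111, 185, 190, 108 and 216 in *WD1* cKO libraries. In CPM, *Hoxd9* was lowest in control 5 and *Hoxc9* in *WD1* cKO 5.

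The members of group 10, which are known for patterning the lumbar region, did not move as a unit. *Hoxa10* (ENSMUSG00000000938), the highest per length of groups 10 to 13 at 5.95 ± 0.874 RPKM (SD, n = 10), had 417, 554, 391, 572 and 322 counts in control and 402, 543, 659, 352 and 650 in *WD1* cKO libraries. *Hoxc10* (ENSMUSG00000022484) had 129, 175, 182, 261 and 141 counts in control and 176, 244, 271, 150 and 253 in *WD1* cKO libraries. From the lowest to the highest library, *Hoxa10* spanned 1.73-fold and *Hoxc10* 1.55-fold in CPM. *Hoxd10* (ENSMUSG00000050368) had 29, 64, 197, 393 and 69 counts in control and 16, 198, 184, 120 and 384 in *WD1* cKO libraries, which is a span of 21.5-fold in CPM, from 0.674 in *WD1* cKO 1 to 14.5 in control 4.

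Of the genes of group 11, which act in the sacral region, the kidney and the limb, *Hoxc11* and *Hoxd11* behaved like *Hoxd10*. *Hoxd11* (ENSMUSG00000042499) had 2, 17, 86, 157 and 17 counts in control and 4, 86, 66, 59 and 137 in *WD1* cKO libraries, a span of 59.2-fold in CPM. *Hoxc11* (ENSMUSG00000001656) had 4, 2, 69, 94 and 4 counts in control and 0, 29, 63, 33 and 94 in *WD1* cKO libraries. *Hoxa11* (ENSMUSG00000038210) had 5, 21, 40, 38 and 9 counts in control and 16, 29, 37, 16 and 29 in *WD1* cKO libraries, a span of 7.72-fold in CPM. For *Hoxd10*, *Hoxc11* and *Hoxd11* the same 6 libraries were the highest (control 3 and 4 and *WD1* cKO 2 to 5) and the same 4 the lowest (control 1, 2 and 5 and *WD1* cKO 1). This grouping was seen in the values and cuts across genotype. *Hoxa11* differed from it, since control 2, at 0.926 CPM, lay above *WD1* cKO 5 (0.837) and *WD1* cKO 4 (0.813).

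**Figure D3:**
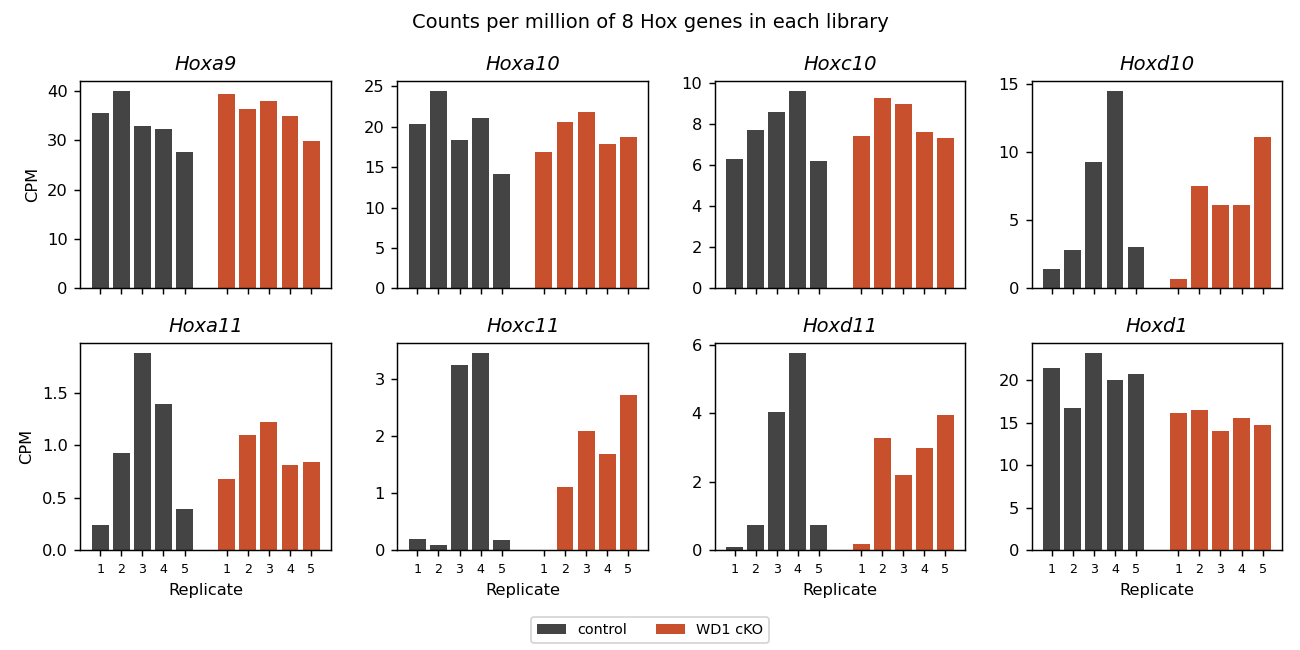
CPM (y axis, from 0) of 8 Hox genes in control (grey) and WD1 cKO (orange) libraries, by replicate number (x axis). Hoxd10, Hoxc11 and Hoxd11 are high in the same 6 libraries of both groups, while Hoxa9, Hoxa10 and Hoxc10 are present at similar levels in all 10, and Hoxd1 is lower in every WD1 cKO library than in every control library.

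The genes beyond group 11 were counted rarely. *Hoxc12* had 22 counts in control 4 and at most 4 elsewhere, and *Hoxc13* had 11 counts in control 4, 3 in *WD1* cKO 2 and 0 in the other 8. *Hoxd12*, *Hoxd13* and *Hoxb13* had at most 2 counts in any library. *Hoxa13*, which marks the hind end of the body axis, had no count in any of the 10 libraries, which allows a level of up to 0.012 CPM over all of them (3 counts, counting error only). At the other end, *Hoxb1*, a gene of the hindbrain, had at most 2 counts in a library. *Hotair*, an RNA transcribed from the *Hoxc* cluster between *Hoxc11* and *Hoxc12*, had 0, 1, 13, 31 and 0 counts in control and 0, 13, 9, 7 and 39 in *WD1* cKO libraries. It was thus counted at least 7 times in the 6 libraries that were high in *Hoxc11* and at most once in the other 4.

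As a share of all *Hox* counts, groups 10 to 13 held 9.10%, 11.04%, 12.6%, 18.0% and 9.04% in control 1 to 5 and 8.60%, 13.5%, 12.8%, 12.5% and 14.9% in *WD1* cKO 1 to 5. The means were 11.96% ± 3.70 (SD, n = 5) in control and 12.5% ± 2.35 in *WD1* cKO embryos, a difference far inside the spread. The lowest share (*WD1* cKO 1, 95% Wilson interval 7.98% to 9.28%) and the highest (control 4, 17.2% to 18.9%) differed by more than counting error. Groups 11 to 13 alone held from 0.171% (control 1, interval 0.0954% to 0.306%) to 3.78% (control 4, 3.39% to 4.20%). The summed level of all *Hox* genes was steadier, at 320 ± 31.9 CPM in control and 311 ± 14.8 CPM in *WD1* cKO embryos (SD, n = 5).

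Variation between libraries was measured by edgeR's biological coefficient of variation, the spread in a gene's level within the groups beyond counting error. Its median was 12.7% over the 32 *Hox* genes tested and 8.26% over all genes tested, and 12 of the 32 lay above the trend for genes of their abundance, against 19.2% of all genes tested. By region, the median was 12.1% in groups 1 to 3, 10.6% in groups 4 and 5, 11.5% in groups 6 to 9 and 56.7% in groups 10 to 13. *Hoxc11* reached 110%, *Hoxd11* 89.1%, *Hoxd10* 69.9% and *Hoxa11* 43.5%. The other 28 genes stayed at or below 30.5%, with *Hoxd8* the steadiest at 6.08%. *Hoxa10* (13.6%) and *Hoxc10* (13.9%) were thus as steady as genes of the trunk.

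**Figure D4:**
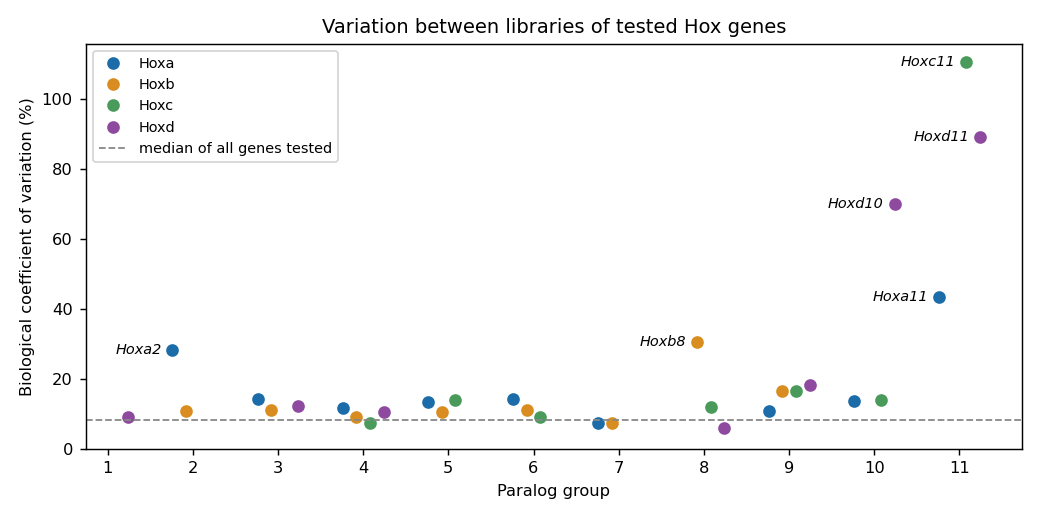
Biological coefficient of variation in percent (y axis) of the tested Hox genes shown, by paralog group (x axis) and coloured by cluster, with the median over all genes tested (8.26%) as a dashed line. Hoxd10 and the 3 genes of group 11 lie from 43.5% to 110%, and the other genes at or below 30.5%.

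Whether genes of group 10 varied together, or with genes of groups 4 and 5, was asked for 6 pairs over the 10 libraries on log2 CPM. No pair held a gene of group 11, so the shared high libraries of *Hoxd10*, *Hoxc11* and *Hoxd11* were not tested in this way. The closest pair was *Hoxc5* and *Hoxc10*, with Pearson's r = 0.69 (permutation p = 0.0309, adjusted p = 0.173) and Spearman's rho = 0.66 (permutation p = 0.0435, adjusted p = 0.181), and r = 0.72 without the 2 libraries farthest from the median of *Hoxc5*. These 2 genes share 166 annotated exon bases (5.37% of *Hoxc5* and 8.70% of *Hoxc10*). How reads on shared bases were counted is not stated, so their counts may not be independent. The part of these bases in this r was not tested. *Hoxc10* and *Hoxd10* gave r = 0.62 (permutation p = 0.0576, adjusted p = 0.173) and rho = 0.53 (permutation p = 0.123, adjusted p = 0.246), and r = 0.56 without the 2 farthest libraries. *Hoxa10* and *Hoxc10* gave r = 0.53 and rho = 0.62 (permutation, adjusted p = 0.225 and 0.181), and r = 0.44 without the 2 farthest. *Hoxa5* and *Hoxa10* gave r = 0.49 and rho = 0.16 (permutation, adjusted p = 0.225 and 0.756), and r = -0.083 without the 2 farthest, so its r rested on those libraries. For *Hoxa10* and *Hoxd10*, r was 0.22 and rho 0.18 (permutation, adjusted p = 0.545 and 0.756), with r = 0.41 without the 2 farthest. For *Hoxb4* and *Hoxc10*, r was 0.21 and rho 0.12 (permutation, adjusted p = 0.545 and 0.756), and r turned to -0.063 without the 2 farthest. No pair reached an adjusted p under 0.05, and the raw p-values of these last 4 pairs were 0.113, 0.1502, 0.545 and 0.540 for r and 0.0602, 0.658, 0.631 and 0.756 for rho (permutation, in the order given).

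By genotype, none of the 32 genes tested had an adjusted p under 0.05 in edgeR's quasi-likelihood test, Benjamini-Hochberg adjusted (0 called, against 0.04% of all 17490 genes tested). An unadjusted p under 0.05 was found for 1, *Hoxd1*, among the lower genes and for 0 among the higher ones, where all genes tested gave 2.38% lower, 2.12% higher and 4.5% in all. With DESeq2's Wald test 1 *Hox* gene, again *Hoxd1*, had an adjusted p under 0.05. The log2 fold changes of 29 of the 32 lay within 0.2 of 0, with 15 below and 17 above 0 (49.9% of all genes tested were below 0). Their median was 0.0028 and their median size 0.064, beside 0.00022 and 0.053 over all genes tested. By region the median was -0.11 in groups 1 to 3 (5 of 7 below 0), 0.024 in groups 4 and 5 (2 of 7), -0.0027 in groups 6 to 9 (6 of 12) and 0.049 in groups 10 to 13 (2 of 6 tested). In bulk RNA, fewer cells that express a gene and less RNA per cell cannot be told apart.

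**Figure D5:**
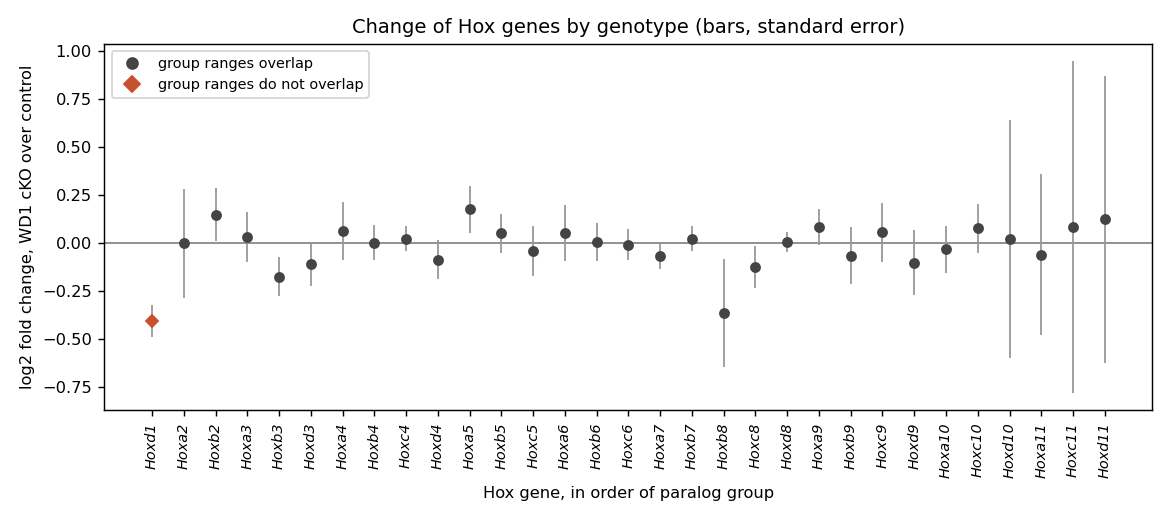
Log2 fold change of WD1 cKO over control (y axis) for the tested Hox genes shown, ordered by paralog group, with bars of 1 standard error. Hoxd1 (diamond, -0.41) is the gene whose groups do not overlap, and the bars are widest for Hoxd10, Hoxc11 and Hoxd11.

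*Hoxd1* (ENSMUSG00000042448), which in the mouse is known as a nociceptor gene under nerve growth factor signalling, was the exception. It had 439, 378, 493, 543 and 470 counts in control and 382, 434, 424, 306 and 511 in *WD1* cKO libraries. Scaled for depth these were 21.4, 16.7, 23.2, 19.98 and 20.7 CPM in control and 16.1, 16.5, 14.04, 15.6 and 14.8 CPM in *WD1* cKO libraries. The groups did not overlap, though control 2 lay just above *WD1* cKO 2. The level per length was 10.95 ± 1.29 RPKM (SD, n = 5) for control and 8.26 ± 0.534 RPKM for *WD1* cKO. On the log2 scale the difference was -0.41 (standard error 0.082, unadjusted p-value 0.00031, adjusted p = 0.388, edgeR's quasi-likelihood test, Benjamini-Hochberg adjusted), so it was not called over all genes. An exact permutation test gave a two-sided p = 0.00794, the smallest that 5 against 5 libraries allow. Groups that do not overlap always give this value, so it is not separate support. *Hoxd1* was 1 of 67 genes that passed the study's cut-off, p under 0.005 together with a log2 difference of more than 0.15 either way. These were 0.383% of all genes tested (0.177% lower). The p-values used here are edgeR's, while the study used DESeq2, so 67 is not the study's own count. *Hoxd1* was also 1 of the 186 genes whose groups did not overlap (1.06%, of which lower in *WD1* cKO 0.566%). Over 16 alternatives its adjusted p ranged from 0.00933, in DESeq2's Wald test, to 0.951 without *WD1* cKO 4, and its unadjusted p stayed under 0.005 in each.

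The neighbours of *Hoxd1* in the *Hoxd* cluster gave other values. *Hoxd3* differed by -0.11 on the log2 scale (standard error 0.12, not called) and *Hoxd4* by -0.087 (0.10), while *Hoxd8* stood at 0.0039 (0.052). The difference between *Hoxd1* and these genes was not itself tested. Of the 8 sensory neuron markers, all had a log2 fold change below 0, with a median of -0.061, and *Ntrk2* (-0.18, standard error 0.056) had an unadjusted p under 0.05 in the edgeR fit, but not after adjustment. Their part in the value of *Hoxd1* was not tested.

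*Hoxb3* had the next smallest p (0.107 in the edgeR fit, log2 fold change -0.18, standard error 0.10). *Hoxb8*, whose expression starts at the neck and covers the spinal cord and DRG below it, differed by -0.37 on the log2 scale (standard error 0.28) through control 3. There it reached 32.2 CPM, while the other control libraries held 9.86 to 15.4 and 9.81 to 13.98 CPM in the *WD1* cKO libraries. Control 3 was also the library with 17.1 CPM over the spinal cord markers, led by *Slc6a5* and *Pax2*, which were counted 99 and 81 times there and at most 11 times in any other library. Without control 3 the log2 fold change of *Hoxb8* was 0.035. *Hoxb9* was likewise highest there, at 27.0 CPM (14.8 to 21.4 in the others), and its log2 fold change of -0.065 became 0.082 without control 3. The summed level of all *Hox* genes was highest in control 3 too, at 361 CPM, as were some other members. *Hoxd1* was among these, at 23.2 CPM, and its log2 fold change of -0.41 became -0.36 without control 3. The connective tissue markers were also highest in control 3. The part of spinal cord or connective tissue RNA in the *Hox* values of control 3 was not tested.

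The caudal genes showed no difference that could be seen against their spread. *Hoxd10* was at 6.20 ± 5.52 CPM (SD, n = 5) in control and 6.30 ± 3.75 CPM in *WD1* cKO embryos, a log2 difference of 0.020 (standard error 0.62). *Hoxc11* was at 1.43 ± 1.76 and 1.52 ± 1.03 CPM (0.084, standard error 0.87) and *Hoxd11* at 2.28 ± 2.49 and 2.52 ± 1.46 CPM (0.12, standard error 0.75). These standard errors are larger than any log2 fold change fitted for the other 29 genes, so a change of such a size was not detectable here. *Hoxa10* (-0.033, standard error 0.12) and *Hoxc10* (0.078, 0.13) were measured far more closely. For the genes of group 9 the log2 fold changes were 0.085 for *Hoxa9* (standard error 0.095), 0.056 for *Hoxc9* (0.15) and -0.10 for *Hoxd9* (0.17).

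Proteins that act with or on *Hox* genes were read from the same fit. The TALE cofactors (*Pbx*, *Meis* and *Pknox* genes), which bind DNA together with *Hox* proteins, were all tested: 4 of 9 were lower and 5 higher in *WD1* cKO embryos, with a median log2 fold change of 0.0083, and none was called after adjustment. *Pknox2* and *Meis3* were expressed at a mean of 119 and 59.6 CPM in control embryos. Of 10 upstream axial factors, *Cdx1*, *Cdx2*, *Cdx4* and *Cyp26a1* were not tested for low counts, and 5 of the other 6 were below 0 (median -0.041), none with p under 0.05. Of these, *Cyp26b1*, an enzyme that breaks down retinoic acid, ranged from 4.51 CPM in *WD1* cKO 1 to 16.7 CPM in control 4, the same libraries that bounded *Hoxd10*, a likeness noticed in the values. All 20 Polycomb and Trithorax genes, which keep *Hox* genes silent or active, were tested, with 12 below and 8 above 0, a median of -0.015 and none with p under 0.05. Of 13 *Hox* antisense or intergenic RNAs and microRNAs, 6 were tested, with 2 below and 4 above 0, a median of 0.074 and none with p under 0.05.

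Promoters of the members that stood out are shown from RefSeq (GRCm38.p6), each with 250 bases before and 50 after an annotated start, on the plus strand. Capitals mark a CCAAT box (read as ATTGG where it lies on the other strand) in *Hoxd1* and *Hoxd10*, and in *Hoxd11* a match, on the other strand, to TGATTNAT, the joint recognition sequence of Pbx and Hox proteins.
Hoxd1 (chr2:74762730-74763029): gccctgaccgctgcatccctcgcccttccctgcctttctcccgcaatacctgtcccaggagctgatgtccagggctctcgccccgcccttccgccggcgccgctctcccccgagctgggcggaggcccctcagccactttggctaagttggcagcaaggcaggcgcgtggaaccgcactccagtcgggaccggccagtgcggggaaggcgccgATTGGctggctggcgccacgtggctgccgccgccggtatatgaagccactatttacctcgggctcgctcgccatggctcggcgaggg
Hoxd10 (chr2:74691641-74691940): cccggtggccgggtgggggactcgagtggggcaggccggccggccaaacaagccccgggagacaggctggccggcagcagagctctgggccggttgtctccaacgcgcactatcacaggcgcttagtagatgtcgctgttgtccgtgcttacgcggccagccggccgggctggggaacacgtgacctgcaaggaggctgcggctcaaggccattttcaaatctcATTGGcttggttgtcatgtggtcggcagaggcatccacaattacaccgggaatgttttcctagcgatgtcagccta
Hoxd11 (chr2:74682073-74682372): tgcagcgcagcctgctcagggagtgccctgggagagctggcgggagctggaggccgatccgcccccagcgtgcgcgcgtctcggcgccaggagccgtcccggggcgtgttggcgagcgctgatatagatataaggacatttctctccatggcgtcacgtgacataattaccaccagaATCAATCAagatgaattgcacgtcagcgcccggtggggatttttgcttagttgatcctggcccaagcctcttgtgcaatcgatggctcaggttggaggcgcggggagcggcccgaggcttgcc

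The CCAAT match began 37 bases before the start in *Hoxd1* and 26 bases before it in *Hoxd10*, and the TGATTNAT match 73 bases before it in *Hoxd11*. The table held 24 promoters for 22 of the 39 genes. CCAAT, searched on both strands, was in 15 of them (62.5%) and in 37.4% of all 32851 promoters of the same length, and TGATTNAT in 2 of them (8.33%) and in 3.22% of all. The *Hox* promoters had a median of 57.7% G and C and 14.5 CG dinucleotides, against 52.7% and 7 for all promoters. *Hoxd1*, with 29 CG dinucleotides, *Hoxd10*, with 22, and the *Hoxd11* promoter shown, with 25, were above both medians. Another annotated *Hoxd11* promoter, not shown, lay below both, with 4 CG dinucleotides and 45.7% G and C. It held no TGATTNAT match. These matches describe sequence only, and binding was not measured in these data.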

How the data were processed

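Stranded mRNA libraries of DRG were sequenced by the authors, aligned with STAR 2.7.8a to GRCm39 and counted per gene with featureCounts 2.0.1 (bcl2fastq 2.20.0.422 for base calls). The deposited values are raw counts of reads per gene, 1 table of 55414 Ensembl genes per library, without normalization. The settings for strand and for multi-mapped reads are not given in the sources used here. Symbols were matched to 52081 identifiers.

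The analysis used edgeR 4.0.16 in R 4.3.3. It kept the 17490 genes that reached 10 counts in 5 or more libraries, scaled counts by TMM and compared groups with the quasi-likelihood test without covariates, with Benjamini-Hochberg adjustment over all genes tested. The fit was run on counts simulated from its own fitted dispersions, which checks the code and not the fit's assumptions. CPM are counts divided by the TMM-scaled library size in the usual unit. RPKM are CPM per kilobase of merged exons of GENCODE M21 on GRCm38, which is not the annotation used for counting. Correlations were tested with 100000 permutations, two-sided, on log2 CPM (prior count 1) (scipy 1.17.1). Exact permutation tests compared mean log2 CPM, two-sided. A level of 0 was bounded by 3 counts, and shares carry 95% Wilson intervals, both for counting error only. Other settings tried were size factors from DESeq2, no filter, a mean count of at least 100, DESeq2 1.42.0's Wald test, robust dispersions, the replicate number as a block and each library left out in turn.

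The members, marker lists, pairs and alternatives were chosen with earlier results of these data known. Per-library values are given for *Dach1*, for each tested *Hox* gene of groups 9 to 13, for *Hox* genes with p under 0.05 and for the most abundant gene per length of each region; list genes are named at an adjusted p under 0.05, an unadjusted p under 0.005 or as an example of a level. *Ntrk2*, *Cyp26b1*, *Hotair* and the members outside this rule were named after their values were seen. No library repeated another of its group: chi-square over degrees of freedom was 4.33 to 15.7 for the pairs, above sampling noise. A few genes and 1 sequence are not reported here and not drawn in the plots of single genes, and the counts and medians of lists include them.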

Additional observations from a re-analysis of the deposited data

Results flagged for a closer look

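The level of each tested *Hox* gene was compared within each group of 5 libraries, and 4 of 64 groups held a library far from the rest of its group, with a gap to its neighbour that took up most of the group's range, where chance gives 3.2. *Hoxd4* was at 7.85 CPM in control 2, against 5.65 to 6.22 CPM for the other controls. *Hoxb8* was at 32.2 CPM in control 3, against 9.86 to 15.4 CPM. *Hoxc9* was at 5.54 CPM in *WD1* cKO 5, against 7.83 to 8.41 CPM for the rest of its group. *Hoxd9* was at 3.78 CPM in control 5, against 6.49 to 7.44 CPM.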

How the results depend on the processing

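*Dach1* kept its call in all 16 alternatives. *Hoxd1* was lower with p under 0.005 in all 16, and DESeq2's Wald test made it the 1 *Hox* gene with an adjusted p under 0.05, where edgeR called 0. Of 504 alternatives of single *Hox* genes, 440 kept the direction, and 11 of 32 genes kept it throughout. The number of all genes with an adjusted p under 0.05, 7 in edgeR, was 4 when genes had to reach a mean count of 100, 19 by the Wald test and 3 to 6 with each library left out in turn. The number of *Hox* genes with p under 0.05 was 1 to 2 with each library left out, with *Hoxb3* added without control 4 (unadjusted p-value 0.0499 in the edgeR fit) and without *WD1* cKO 2 (0.0460). With each library left out, log2 fold changes that changed sign ranged from -0.20 to 0.14 for *Hoxa2*, -0.071 to 0.095 for *Hoxa3*, -0.034 to 0.12 for *Hoxa4*, -0.028 to 0.047 for *Hoxb4*, -0.025 to 0.047 for *Hoxc4*, -0.12 to 0.0056 for *Hoxd4*, -0.0097 to 0.11 for *Hoxb5*, -0.15 to 0.018 for *Hoxc5*, -0.0097 to 0.17 for *Hoxa6*, -0.060 to 0.091 for *Hoxb6*, -0.055 to 0.035 for *Hoxc6*, -0.021 to 0.066 for *Hoxb7*, -0.50 to 0.035 for *Hoxb8*, -0.022 to 0.037 for *Hoxd8*, -0.15 to 0.082 for *Hoxb9*, -0.013 to 0.18 for *Hoxc9*, -0.13 to 0.056 for *Hoxa10*, -0.30 to 0.62 for *Hoxd10*, -0.29 to 0.29 for *Hoxa11*, -0.25 to 0.75 for *Hoxc11* and -0.17 to 0.85 for *Hoxd11*. None of these genes was called in any fit. Without the filter, *Hoxa2* stood at 0.0083 and *Hoxc6* at 0.0012. The *Hox* median lay between -0.073 and 0.026 over all alternatives. Deviations from the group means, a prior count of 0.25 and leaving out control 3 changed neither the call nor the sign of a pair's r, while leaving out the 2 libraries farthest from the median turned the sign for *Hoxa5* and *Hoxa10* (-0.083) and *Hoxb4* and *Hoxc10* (-0.063). The cause of these shifts was not tested.

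Both groups share the replicate numbers, and the labels tie no litter or batch to them. Deviations from the group means correlated at 0.329, 0.0404, 0.320, 0.354 and 0.390 for numbers 1 to 5, and control 1, 3 and 5 correlated best with their own number. Since number 2 stayed under the 0.1 asked of every pair, the numbers were not taken as pairs, though the other 4 lay above it. With the replicate number as a block, 1241 genes in place of 787 had an unadjusted p under 0.05 (1 *Hox* gene, as without it), 8 genes had an adjusted p under 0.05 (0 *Hox* genes), *Hoxa2* stood at 0.0091, *Hoxb4* at -0.0014 and *Hoxa11* at 0.050, and *Hoxd1* at -0.40 with an adjusted p of 0.333 in edgeR's quasi-likelihood test.

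At a mean count of 100 or more, 24 *Hox* genes were left. Genes of groups 11 to 13 rest on few reads, and exon lengths come from another build than the counts. *Hoxd3*, *Hoxd4*, *Hoxb3* and *Hoxa11* may hold reads of overlapping genes, as may *Hoxd10*, *Hoxd11*, *Hoxb2*, *Hoxa3* and other members with smaller overlaps.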
